A study of Mus musculus with 6 samples.

Results

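The olfactory receptor genes described here are those whose symbol is Olfr followed by a number and whose mean over the 6 libraries was at least 1 normalized count. Of 1107 such genes listed among 24421 genes, 110 reached that mean (9.94%), 699 had no read in any library, and 298 had a read but a mean under 1. The libraries came from olfactory bulb cells of 6 adult male mice, 1 library per mouse, sorted for the red fluorescent protein TurboRFP 4 weeks after injection of AAV-GFAP-iCre-P2a-TurboRFP. This virus expresses the recombinase Cre together with TurboRFP from the GFAP promoter, which is active in astrocytes and is not strictly limited to them, and every mouse of both groups received it. In the 3 Sox9 KO mice the cells carried Sox9 fl/fl, from which Cre removes part of the gene, and the 3 control mice, labelled WT and C57BL/6J, carried no floxed allele. The purity of the sorted cells was not checked by a second sort. The study reports that it was instead assessed in the RNA-seq from markers of known cell types. Sox9 was counted lower in every KO library than in any WT library, with 5185, 6562 and 4921 normalized counts of Sox9 in WT and 52.6, 64.3 and 57.7 in Sox9 KO.

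Olfactory receptors are G protein-coupled receptors of the sensory neurons of the nose. Each sensory neuron expresses a single receptor gene out of the whole family, and the signal runs through the G protein subunit Gnal, the adenylyl cyclase Adcy3 and the cyclic nucleotide-gated channel that contains Cnga2. The axons of these neurons end in the glomeruli of the olfactory bulb and carry some receptor mRNA with them. Receptor genes lie in tandem clusters of close paralogs, and some family members are also transcribed in tissues outside the nose.

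Because paralogs are so alike, the sequence of a pair shows where reads can be told apart. The first set are stretches of coding sequence from neighbouring receptor genes that the results turn on, taken from the GENCODE transcripts (mm10), with the bases that differ within a pair in capitals. Over the whole aligned coding sequence, Olfr110 and Olfr111 were 98.1% identical, Olfr98 and Olfr99 92.8%, and Olfr287 and Olfr288 97.4%.
Olfr110, chr17:37499083-37499172, plus strand: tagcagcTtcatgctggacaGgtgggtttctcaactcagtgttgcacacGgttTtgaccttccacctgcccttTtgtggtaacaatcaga
Olfr111, chr17:37530409-37530498, plus strand: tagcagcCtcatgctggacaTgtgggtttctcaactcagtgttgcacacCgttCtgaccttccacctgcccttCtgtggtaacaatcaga
Olfr98, chr17:37263163-37263252, minus strand: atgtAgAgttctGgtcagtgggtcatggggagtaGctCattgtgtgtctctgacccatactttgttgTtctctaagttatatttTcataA
Olfr99, chr17:37279919-37280008, minus strand: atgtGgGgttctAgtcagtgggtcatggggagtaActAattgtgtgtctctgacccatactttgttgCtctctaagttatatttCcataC
Olfr287, chr15:98207848-98207937, minus strand: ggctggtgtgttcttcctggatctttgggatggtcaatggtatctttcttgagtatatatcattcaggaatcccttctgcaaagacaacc
Of 90 bases, 5 differed between Olfr110 and Olfr111 and 8 between Olfr98 and Olfr99, while the stretch of Olfr287 was the same in Olfr288, with 0 differences. Reads inside such a shared stretch cannot be assigned to 1 gene. Of all 50-base words of its transcripts, Olfr110 shared 31.8% with Olfr111, and Olfr99 shared 7.84% with Olfr98. The sources used here do not say how reads of shared sequence were counted, so the levels of these pairs carry that uncertainty.

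The second set are the 250 bases before the start of the 3 receptor genes on chromosome 15, which fell together, as RefSeq gives them (GRCm38.p6). They are shown because these starts were the same in RefSeq and GENCODE, as they were for only 10 of the 89 members with a RefSeq promoter. Capitals mark CCCNNGGG, the core that Ebf (Olf/Ebf) factors bind.
Olfr287, chr15:98221057-98221306, minus strand: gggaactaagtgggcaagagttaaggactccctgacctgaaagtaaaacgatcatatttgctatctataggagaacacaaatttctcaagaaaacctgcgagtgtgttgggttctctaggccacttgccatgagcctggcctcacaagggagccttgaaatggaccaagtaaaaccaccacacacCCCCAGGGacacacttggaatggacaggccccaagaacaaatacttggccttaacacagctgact
Olfr288, chr15:98195543-98195792, minus strand: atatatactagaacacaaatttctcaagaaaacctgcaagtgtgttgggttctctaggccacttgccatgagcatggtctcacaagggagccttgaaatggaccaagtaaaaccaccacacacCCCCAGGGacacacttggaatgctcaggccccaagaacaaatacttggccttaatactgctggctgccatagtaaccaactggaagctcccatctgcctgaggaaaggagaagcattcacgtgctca
Olfr286, chr15:98234451-98234700, minus strand: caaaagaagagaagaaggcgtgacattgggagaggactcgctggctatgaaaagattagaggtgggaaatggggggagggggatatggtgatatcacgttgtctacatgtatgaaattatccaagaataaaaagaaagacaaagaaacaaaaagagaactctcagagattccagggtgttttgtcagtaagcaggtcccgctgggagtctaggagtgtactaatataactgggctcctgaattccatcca
The windows of Olfr287 and Olfr288 were 94.1% identical over 188 aligned bases, and each held the core once. The window of Olfr286 was 42.3% identical to that of Olfr287 and held no such core. Searched on both strands of the 250 bases before each start, CCCNNGGG was found in 11.8% of all RefSeq promoters. It was found in 2.75% of receptor gene promoters and in 6.74% of those of the 89 members. The homeodomain core TAATTG, which Lhx2 and related factors bind, was found in 7.17%, 22.6% and 20.2%, in the same order. These matches describe the letters in the windows and say nothing of binding.

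Libraries held 18242129 to 86906527 reads assigned to genes, and 1 read was worth between 0.395 and 1.58 normalized counts. One library stood apart from the rest. In KO replicate 3, Cyp2g1, an enzyme of the supporting cells of the olfactory epithelium, was at 4322 normalized counts, against 0.993 and 118 in the other KO libraries and 95.0, 11.01 and 6.30 in WT. Sec14l3, another gene of this epithelium, was at 2353 in KO replicate 3 and between 0.993 and 47.8 in the other 5 libraries. Of the 8 nasal epithelium markers listed, 6 were tested, 1 passed the test (Ermn, which oligodendrocytes also express, lower in KO), and Obp1a was at 0 in every library. The summed list ranged from 880 to 3023 in WT and from 234 to 7582 in Sox9 KO. Most of the sum in WT was Ermn, at 720, 3009 and 1852 in WT and 230, 169 and 597 in Sox9 KO. The sum is therefore no measure of nasal tissue in WT. The part of nasal tissue in the receptor gene values was not tested, and counts are given below with and without this library.

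The sorted cells also differed between the groups in their other markers, which touches every comparison below. All 8 astrocyte markers fell, with a summed level of 441744 to 490190 in WT and 31456 to 40064 in Sox9 KO. Of 10 microglia markers 9 rose, from a sum of 150515 to 176471 in WT to 521954 to 620488 in Sox9 KO, and of 9 markers of border macrophages and monocytes 5 rose and 3 fell. Of 10 neuron markers 8 fell, from 19195 to 26113 to 2665 to 4811, and 5 of 7 olfactory ensheathing cell markers fell. Of 6 B and plasma cell markers in the table, 2 rose. In such bulk samples, fewer cells of a type and less RNA per cell cannot be told apart, and the part of these shifts in the receptor gene values was not tested.

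Taken as a family, the detected receptor genes gave nearly the same total of normalized counts in both groups. Their summed level was 1749, 1653 and 1764 normalized counts in WT and 1796, 1943 and 1648 in Sox9 KO, with means of 1722 ± 60.2 (SD, n = 3) and 1796 ± 147 (SD, n = 3). The KO libraries spanned the WT range, so the totals overlapped. Scaled to the reads on genes (RPM), the totals were 57.6, 53.8 and 61.3 in WT and 47.3, 56.6 and 48.3 in KO. On that scale KO replicates 1 and 3 lay below every WT library and KO replicate 2 inside the WT range, so the evenness depends on the scaling. Within these totals, single genes moved in opposite directions. The 13 members called higher in KO summed to between 279 and 372 in WT and between 1343 and 1710 in KO, while the 8 called lower summed to between 1092 and 1213 in WT and between 43.8 and 72.5 in KO. These last sums describe genes chosen by that difference. The 5 members with the highest mean (Olfr111, Olfr287, Olfr110, Olfr288 and Olfr99) held 71.4% of the family's normalized counts.

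Most members were counted with few reads. The median of the members' means was 2.18 normalized counts, 13 members had a mean of at least 10, and 51 had a mean under 2. Only 19 members had a read in all 6 libraries, and 18 had reads in 1 library alone. Those 18 were 3, 6 and 4 members in WT replicates 1, 2 and 3 and 1, 1 and 3 in the KO replicates. The mean was at least 1 in both groups for 43 members, in KO alone for 26 and in WT alone for 41, and a member of the last 2 kinds was kept through the group in which it was high. Just inside the threshold lay Olfr711 with a mean of 1.03 and Olfr1348 and Olfr1006 with 1.01 each, the last 2 counted in KO replicate 3 alone. Just outside lay Olfr1297 at 0.993, Olfr414 at 0.983 and Olfr152 at 0.962.

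Counted with at least 1 read, 121, 173 and 106 of the 1107 receptor genes were seen in WT replicates 1, 2 and 3 and 107, 118 and 140 in the KO replicates. Thinned to the depth of the shallowest library, these numbers became 114, 121 and 106 in WT and 79.6, 66.4 and 125 in KO. KO replicate 3, the library with the nasal epithelium markers, thus gave the highest number, and the other KO libraries the lowest. The 997 receptor genes below the threshold were also lowest in KO replicates 1 and 2, with KO replicate 3 inside the range of WT, at 4.52, 5.04 and 3.12 RPM (reads scaled to the reads on genes) in WT and 2.30, 1.38 and 4.18 in KO. In normalized counts they summed to 137, 155 and 89.8 in WT and to 87.4, 47.4 and 143 in KO. There KO replicate 1 was close to WT replicate 3.

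**Figure D1:**
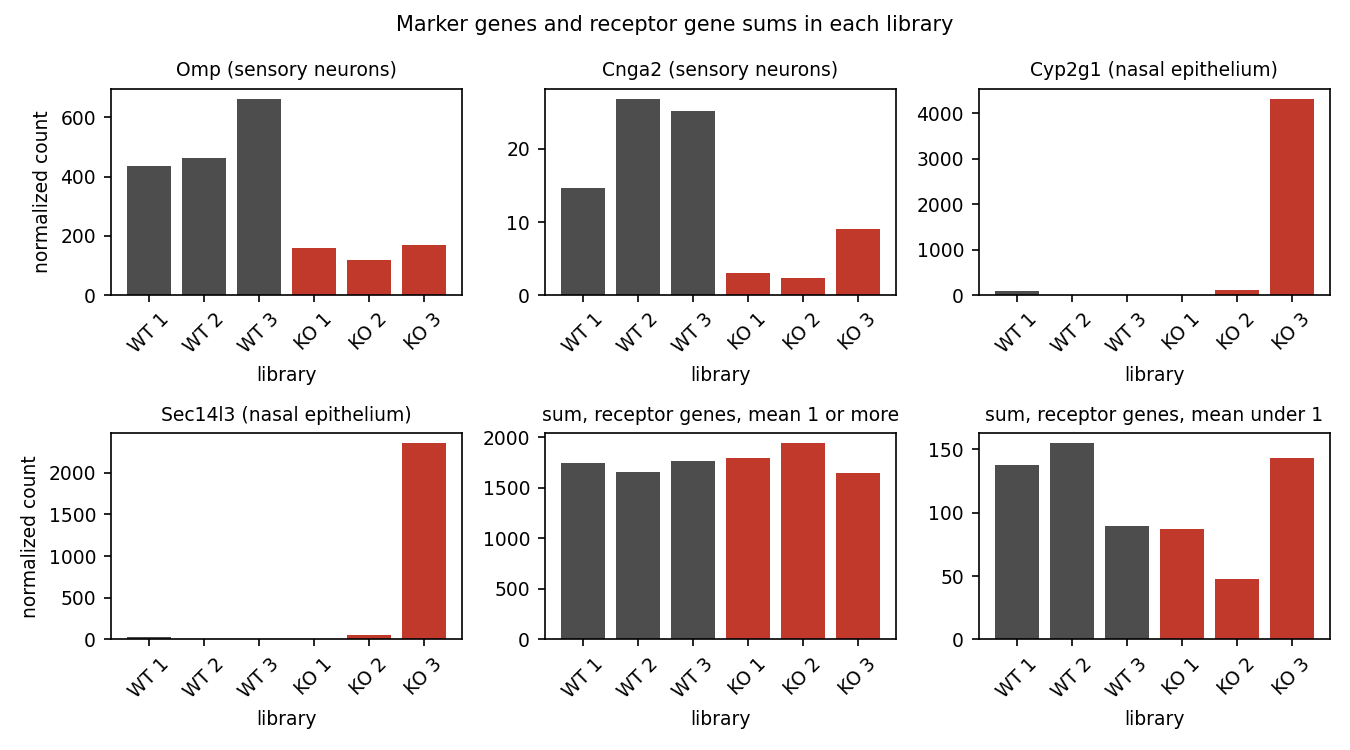
Normalized counts in each library (WT grey, Sox9 KO red) of the sensory neuron genes Omp and Cnga2, the nasal epithelium genes Cyp2g1 and Sec14l3, and the summed receptor genes with a mean of at least 1 and with a mean under 1; each bar is 1 library on its own linear axis from 0. Omp and Cnga2 are lower in all 3 KO libraries, Cyp2g1 reaches 4322 in KO replicate 3, and the sum of the detected receptor genes stays between 1648 and 1943.

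The comparison of Sox9 KO with WT asked which genes differed between the sorted cells of the groups, which also differed in their cell type markers. It was run with limma on log2(normalized count + 1) over the 18413 genes with a mean of at least 1. A gene counted as changed at a Benjamini-Hochberg adjusted p under 0.05 and a change of at least 1.5-fold. Of the 110 receptor genes, 13 (11.8%) rose in KO, beside 22.2% of all genes tested, and 8 (7.27%) fell, beside 28.8% of all genes tested. Both shares of the members were thus below those of the table as a whole. Among the 97 members with a mean under 10, 7.22% rose and 4.12% fell, beside 4.94% and 16.1% of all tested genes with such means. The library groups did not overlap for 19 members higher in KO (17.3%, beside 32.4% of all tested genes) and for 10 lower in KO (9.09%, beside 34.7%). The median log2 fold change of the members was −0.46, against −0.07 over all genes tested, with 46 members above 0 and 64 below. These medians were the same with the 39 members that had no read in 1 of the groups set to the bound that a floor of 3 reads over the group allows.

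On the whole reads recovered from the deposited values, edgeR's quasi-likelihood test called 11 members higher, beside 23.6% of all genes, and 11 lower, beside 27.2%. It shared 11 higher and 7 lower genes with limma. Olfr1426, Olfr1034 and Olfr1373 were called by limma alone, and Olfr784, Olfr606, Olfr309 and Olfr597, which had 0 reads in KO and were missed by at least 1 WT library, by edgeR alone. Without KO replicate 3, limma called 16 members higher, beside 21.4% of all genes, and 9 lower, beside 27.8%. Of the genes called with all libraries, 12 of the 13 higher and 8 of the 8 lower were also called without this library, Olfr1423 being the exception. With each of the 6 libraries left out in turn, 9 of the 13 and 7 of the 8 were called every time, and the number of members called lower was largest without WT replicate 3, at 14.

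The split of calls moved with the scaling. Quantile normalization raised the median log2 fold change of all genes by 0.27 and called 22 members higher and 7 lower, with 56.8% of the calls over all genes being higher, against 43.6% with the deposited scaling. Scaling to equal totals lowered that median by 0.23 and called 12 members higher and 8 lower, and equal totals without the ribosomal RNA precursor Rn45s lowered it by 0.31 and called 11 and 9, with 32.2% and 28.5% of all calls being higher. The direction of every called member was the same under each of these scalings.

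**Figure D2:**
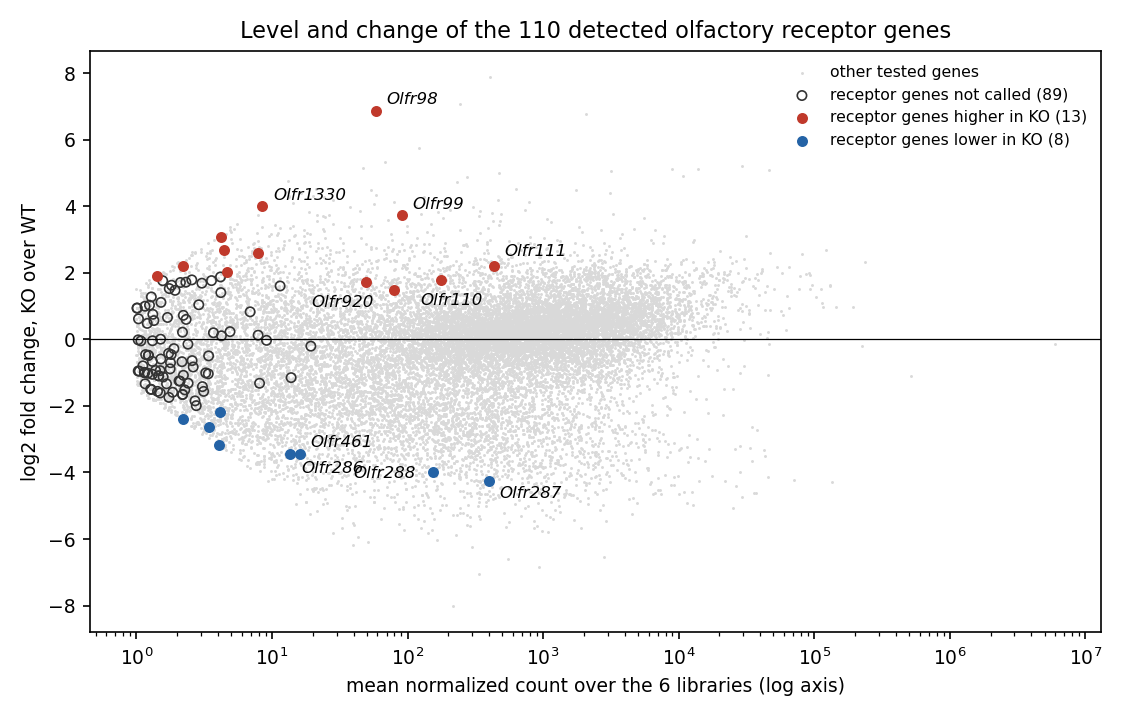
Mean normalized count over the 6 libraries (log axis) against the log2 fold change of Sox9 KO over WT for the 110 detected receptor genes, on top of all other tested genes (grey). Red points are the 13 genes called higher and blue points the 8 called lower at an adjusted p under 0.05 and 1.5-fold; most of the 89 open circles have means under 10.

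In a cluster on chromosome 17, 14 of 46 listed genes were detected, of which 4 rose and none fell. Among all tested genes, 22.2% were called higher and 28.8% lower. Olfr98 (ENSMUSG00000063660, 37262711 to 37263749 on the minus strand, 1 exon) had 0 reads in all 3 WT libraries and 145, 284 and 64 reads in the KO libraries. In normalized counts the KO libraries held 144, 112 and 97.2. Set against a floor of 3 reads over the WT group, which covers counting error only, KO was at least 108-fold higher, and limma gave an adjusted p of 6.32e-07. Such bounds are the smaller of that from pooled reads and that from the group mean. No WT library came near any KO library. An annotated antisense gene, Gm20429, overlaps 354 bp of the only exon of Olfr98 and is not listed in the table, and 60.7% of the 50-base words of Olfr98 occur elsewhere among annotated transcripts.

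Olfr99, the next detected gene along the chromosome (37279043 to 37283460, minus strand, 3 exons), was already counted in WT. It stood at 10.2, 11.01 and 14.2 normalized counts in WT and at 159, 199 and 150 in KO, so every KO library was above every WT library. The mean was 14.3 times higher in KO, with a log2 fold change of 3.74 (SE 0.32, adjusted p = 2.92e-06, limma).

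Olfr110 and Olfr111, the near-identical pair shown above, rose less steeply from higher levels. Olfr111 (37508030 to 37532449, plus strand, 3 exons) was at 129, 156 and 183 normalized counts in WT and at 731, 794 and 611 in KO, the highest KO level of any member. Olfr110 (37492468 to 37500207, plus strand, 3 exons) was at 59.9, 77.1 and 104 in WT and at 279, 287 and 258 in KO. The groups were far apart for both genes, with log2 fold changes of 2.19 (SE 0.18, adjusted p = 2.19e-06, limma) for Olfr111 and 1.80 (SE 0.24, adjusted p = 8.06e-05) for Olfr110.

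The other 10 detected genes of this cluster did not pass the test. Olfr112, the next detected gene after Olfr111, was at 24.8, 22.7 and 12.6 normalized counts in WT and at 9.93, 14.2 and 31.9 in KO, with KO replicate 3 the highest and the groups overlapping (log2 fold change −0.20, adjusted p = 0.754, limma). Olfr114 was at 14.6, 6.19 and 6.30 in WT and at 11.9, 3.55 and 12.2 in KO, also overlapping. Olfr116 was at 1.46, 0 and 0 in WT and at 4.96, 4.74 and 1.52 in KO, where the groups did not overlap and 1 read in WT stood beside 18 in KO (log2 fold change 1.71, adjusted p = 0.073, limma). Counting the called genes, 11 of the 14 detected genes had a log2 fold change above 0, beside 46 of all 110 members.

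Genes of other kinds that lie among these receptors also rose. Olfr98 and Olfr99 lie 6.47 kb and 4.56 kb from H2-M3, a class I-like MHC gene that presents N-formylated peptides, which went from 320, 258 and 334 normalized counts in WT to 2485, 2362 and 2276 in KO (log2 fold change 2.97, adjusted p = 3.15e-08, limma). Olfr110 lies 8.92 kb from H2-M2, another class I-like gene, which went from 10.2, 36.5 and 41.0 to 8091, 3321 and 875 (log2 fold change 6.78, adjusted p = 1.53e-05). Whether reads of a neighbour's transcript reached the receptor genes was not tested, since the files hold 1 value per gene.

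A cluster on chromosome 15 went the other way, with 3 of 9 listed genes detected and all 3 lower in KO, beside 28.8% of all tested genes. Olfr287 (98206971 to 98221056, minus strand, 4 exons) was the highest receptor gene in WT, at 804, 766 and 714 normalized counts, and fell to 48.6, 28.4 and 42.5 in KO. Olfr288 (98186013 to 98195542, minus strand, 4 exons) was at 335, 262 and 271 in WT and at 20.8, 11.4 and 21.3 in KO. Olfr286 (98224308 to 98234450, minus strand, 4 exons) was at 20.5, 26.8 and 29.9 in WT and at 2.98, 0.395 and 1.52 in KO.

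In each of the 3 genes the lowest WT library was above the highest KO library. The log2 fold changes were −4.25 for Olfr287 (SE 0.23, adjusted p = 1.23e-07, limma), −3.98 for Olfr288 (SE 0.31, adjusted p = 1.69e-06) and −3.46 for Olfr286 (SE 0.58, adjusted p = 0.00042). Olfr287 and Olfr288 are annotated with a joint transcript, Gm44579, that shares 290 bp of exon with the first and 1774 bp with the second and is not listed in the table. Of the 50-base words of Olfr288, 72.4% also occur in Gm44579. Counts of Olfr287 and Olfr288 may therefore have been divided with it, and a single transcript over both genes cannot be told apart from 2. The nearest tested gene that is no receptor, Ccdc184, 15.9 kb from Olfr288, was at 23.4, 5.50 and 14.2 in WT and at 6.95, 3.16 and 0 in KO and did not pass the test (adjusted p = 0.0546, limma).

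**Figure D3:**
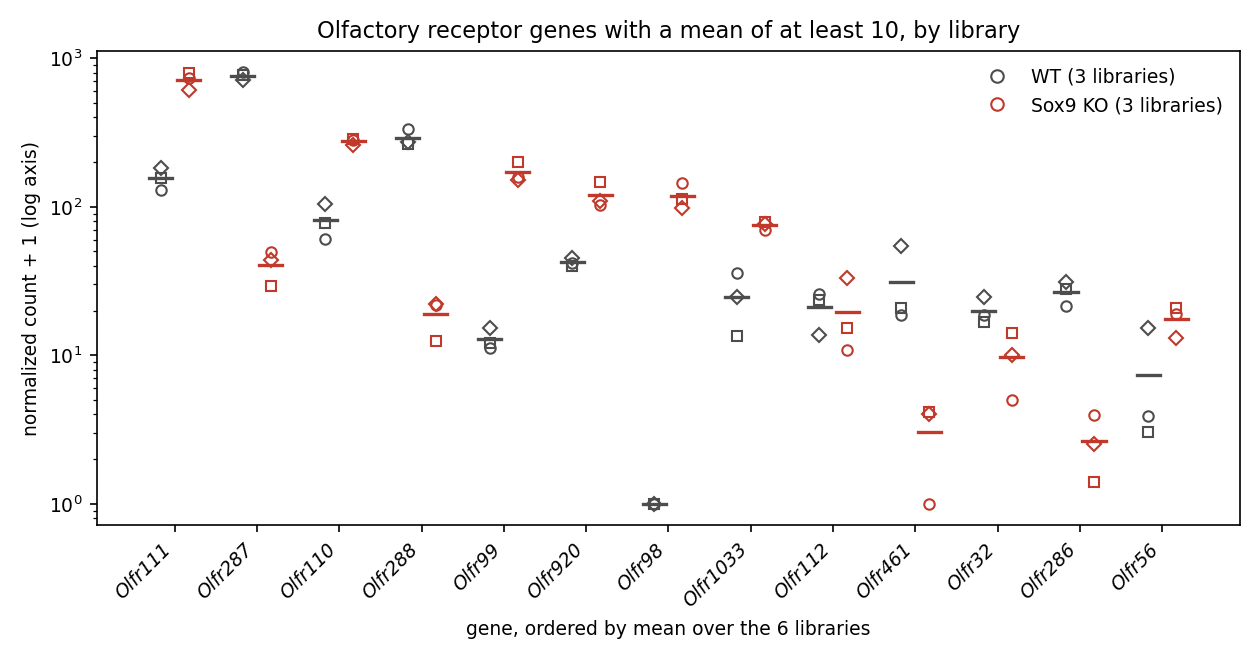
Normalized count + 1 (log axis) of the 13 receptor genes with a mean of at least 10, ordered by mean; each open symbol is 1 library (circle, square and diamond for replicates 1, 2 and 3) and each bar the mean of 3 libraries. WT and Sox9 KO do not overlap for the 10 called genes or for Olfr32; they overlap for Olfr112 and Olfr56, and Olfr98 sits at 1, which stands for 0 counts, in WT.

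A further group fell on chromosome 14, at lower levels. Olfr1512 was at 10.2, 6.19 and 7.88 normalized counts in WT, Olfr1511 at 14.6, 2.75 and 3.15 and Olfr1510 at 5.85, 2.75 and 4.73, and all 3 had 0 reads in every KO library. Set against a floor of 3 reads over the KO group, they were at least 10.6-fold, 8.08-fold and 5.55-fold lower in KO, and Olfr1511 at least 4.13-fold without WT replicate 1. The adjusted p-values from limma were 0.00152, 0.013 and 0.0113. Olfr1510 and Olfr1511 are 97.3% identical in coding sequence, and 25.3% of the 50-base words of the first occur in the second and 34.5% of those of the second in the first, while Olfr1512 is 96.0% identical to its neighbour Olfr1513, which did not pass the test, at 1.46, 2.06 and 3.15 in WT and 3.97, 0 and 0 in KO. Olfr1507, also in this cluster, was at 11.7, 0 and 1.58 in WT and at 0, 0.395 and 0 in KO and did not pass the test.

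In another stretch of the same cluster, Olfr750 went the other way. It had 0 reads in WT and 12.9, 9.47 and 3.04 normalized counts in KO, at least 7.83-fold higher (adjusted p = 0.00376, limma). Rnase12, of the ribonuclease A family and 8.64 kb from Olfr750, rose as well, from 2.92, 7.57 and 0 to 15.9, 9.47 and 25.8 (adjusted p = 0.0251).

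On chromosome 19, 8 of 62 listed genes were detected and 3 neighbours rose, all at low counts. Of all tested genes 22.2% rose, and of those with a mean under 10, 4.94%. Olfr1423 was at 1.46, 2.75 and 0 normalized counts in WT and at 3.97, 23.7 and 15.2 in KO. Olfr1424 had 0 reads in WT and 2.98, 8.68 and 1.52 in KO. Olfr1426 was at 2.92, 0 and 1.58 in WT and at 7.94, 9.47 and 6.08 in KO.

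Their lowest KO libraries lay just above the highest WT libraries, with 0 to 4 reads behind each WT value. The log2 fold changes were 2.58 (SE 0.79, adjusted p = 0.0158, limma) for Olfr1423 and 2.01 (SE 0.69, adjusted p = 0.0273) for Olfr1426, and Olfr1424 was at least 4.06-fold higher (adjusted p = 0.029), or at least 2.08-fold without KO replicate 2. Over the 6 fits that each left out 1 library, the adjusted p in limma ranged from 0.00672 to 0.0758 for Olfr1423, from 0.0139 to 0.133 for Olfr1424 and from 0.0168 to 0.0835 for Olfr1426. The call was lost without WT replicate 3, KO replicate 2 or KO replicate 3 for Olfr1423, without KO replicate 1 or 2 for Olfr1424, and without WT replicate 2, KO replicate 1 or KO replicate 2 for Olfr1426. The paralogs Olfr1425, which lies between Olfr1424 and Olfr1426 and was at 2.92, 0 and 0 in WT and 0.993, 16.6 and 4.56 in KO, and Olfr1427, beyond Olfr1426 and at 1.46, 0 and 1.58 in WT and 3.97, 11.4 and 3.04 in KO, did not pass the test. Olfr1425 shares sequence with Olfr1424, at 35.7% of the latter's 50-base words.

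**Figure D4:**
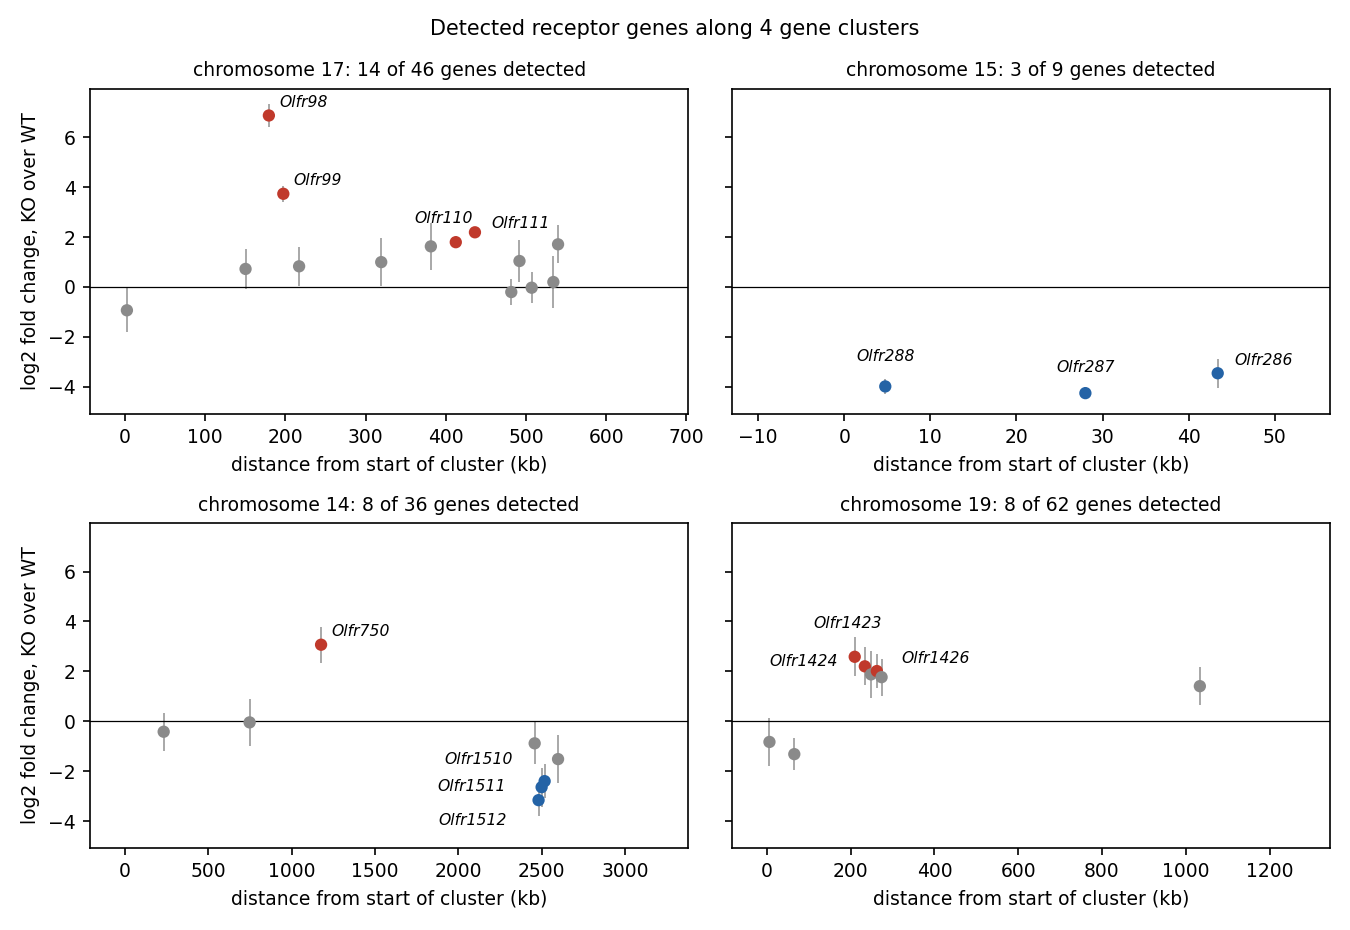
Log2 fold change of Sox9 KO over WT (error bars, SE) against distance from the start of the cluster (kb) for the detected receptor genes of the clusters on chromosomes 17, 15, 14 and 19; red points were called higher, blue points lower and grey points not called. Called genes lie side by side on chromosome 15 and at 2 places on chromosome 17, on chromosome 19 Olfr1425, not called, lies between called genes, and on chromosome 14 the 3 lower genes lie apart from Olfr750.

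The remaining called genes lay in 6 other clusters of the 31 that held members. Olfr920 on chromosome 9 (38752299 to 38760117, plus strand, 2 exons) was at 40.9, 39.2 and 44.1 normalized counts in WT and at 101, 146 and 108 in KO. Its groups stood well apart (log2 fold change 1.48, SE 0.27, adjusted p = 0.000871, limma). Vwa5a, 8.96 kb away, rose by a like amount, from 4112, 4224 and 3617 to 9529, 8807 and 8898 (log2 fold change 1.19).

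On chromosome 2, where 16 of 218 listed genes were detected, Olfr1033 was at 35.1, 12.4 and 23.6 in WT and at 68.5, 78.6 and 76.0 in KO (log2 fold change 1.72, adjusted p = 0.00389, limma). The adjacent Olfr1034 had 0 reads in WT and 3.97, 1.58 and 3.04 in KO, at least 2.20-fold higher (adjusted p = 0.0403), and edgeR did not call it (adjusted p = 0.0527). Its call in limma was also lost without KO replicate 1 (adjusted p = 0.144) or KO replicate 2 (0.0513). Olfr32, in the same cluster, was lower in every KO library, at 17.5, 15.8 and 23.6 in WT and 3.97, 13.0 and 9.11 in KO, but did not pass (adjusted p = 0.0822, limma). It passed without KO replicate 2 (0.0484), and over the libraries left out in turn the adjusted p reached 0.262.

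Olfr1330 on chromosome 4 had 0 reads in WT and 15.9, 27.6 and 7.60 normalized counts in KO, at least 15.7-fold higher (adjusted p = 0.000413, limma), or at least 10.8-fold without KO replicate 2, which held the most reads. Olfr172 on chromosome 16 was at 0, 0 and 1.58 in WT and at 5.96, 13.0 and 6.08 in KO (adjusted p = 0.00705), while its paralog Olfr173, 96.9% identical, was at 11.7, 2.06 and 1.58 in WT and at 3.97, 7.11 and 3.04 in KO and overlapped. Both called genes thus rose from 0 reads or 1 read in WT.

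Olfr461 on chromosome 6 (40542171 to 40555050, minus strand, 2 exons) fell, from 17.5, 19.96 and 53.6 in WT to 0, 3.16 and 3.04 in KO (log2 fold change −3.43, SE 0.72, adjusted p = 0.00193, limma). Its nearest tested neighbour moved the other way, as Clec5a, a lectin receptor of myeloid cells 19.8 kb away, rose from 1166, 1542 and 1531 to 5112, 3978 and 4355. Olfr1373 on chromosome 11 was at 5.85, 7.57 and 7.88 in WT and at 0, 0.395 and 3.04 in KO (log2 fold change −2.18, adjusted p = 0.0217), and edgeR did not call it (adjusted p = 0.0559). Without WT replicate 2, KO replicate 1 or KO replicate 2 the call in limma was lost as well, at adjusted p-values of 0.0519, 0.0759 and 0.0595. Its neighbour Ppp2ca, the catalytic subunit of phosphatase 2A 16.8 kb away, had a log2 fold change of −0.0032.

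Olfr56, also on chromosome 11 (48978889 to 49135387, plus strand, 8 exons), spans other genes and shares 111 bp of exon with Ifi47, an interferon-inducible GTPase. It was at 2.92, 2.06 and 14.2 in WT and at 17.9, 19.7 and 12.2 in KO. WT replicate 3 lay inside the KO range, and the gene did not pass (adjusted p = 0.0577, limma). It passed without WT replicate 3 (0.00699), and over the libraries left out in turn the adjusted p reached 0.188. Ifi47 itself rose from 295, 443 and 608 to 2717, 1261 and 2163 (log2 fold change 2.18, adjusted p = 0.0001), and without knowing the strand of the counting, the shared reads cannot be told apart. Over all members, 24 lay within 20 kb of a tested gene that is no receptor, 8 of the called members were among them, and in 5 of these the neighbour was called in the same direction, beside 22.2% of all tested genes called higher and 28.8% called lower. These neighbours were 4 distinct genes, since H2-M3 stands for both Olfr98 and Olfr99.

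Per kilobase of annotated exon, which allows levels to be compared between genes, Olfr287 was highest in WT at 281 normalized counts per kb, followed by Olfr288 at 113, Olfr111 at 58.9 and Olfr110 at 45.9. In KO, Olfr111 led at 269 per kb, followed by Olfr110 at 157, Olfr98 at 113 and Olfr99 at 95.3, and Olfr287 was at 14.7. The order at the top was thus exchanged between the groups, and neither Olfr111 nor Olfr287 overlapped between them. These levels depend on GENCODE exon lengths, which may not be those used for counting.

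Receptors listed for a place outside the nose were looked at whatever their level, in a list chosen with earlier results of these data known. Olfr78, a receptor of the carotid body and kidney, had 1, 0 and 2 reads in WT and 0 in every KO library. Olfr558, found in vascular smooth muscle, had 2, 0 and 4 reads in WT and 0, 2 and 0 in KO and did not pass (adjusted p = 0.22, limma). Olfr544, found in liver and fat, had 1, 1 and 2 reads in WT and 0 in KO. Olfr2, described in vascular macrophages, had 0 reads in WT and 3, 0 and 0 in KO. Olfr1393, of the kidney tubule, had 2, 2 and 1 reads in WT and 3, 7 and 1 in KO, and Olfr16, found in sperm, had 1 read in 1 WT library. Olfr78, Olfr544, Olfr2 and Olfr16 had a mean under 1 and were not tested. With so few reads, no difference was detectable in Olfr558 or in Olfr1393 (adjusted p = 0.789, limma, for the latter). The other genes of this list were called and are described above, Olfr98, Olfr110, Olfr111 and Olfr920 as higher in KO and Olfr287 as lower. No place outside the nose is given here for these called genes.

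Of the genes that serve the receptors in sensory neurons, more fell than rose. In a list of 37 olfactory transduction and sensory neuron genes, of which 36 were tested, 18 fell, 2 rose and 16 did not pass, with a median log2 fold change of −1.45, beside 28.8% of all tested genes that fell, 22.2% that rose and a median of −0.07. The summed level of the list overlapped between the groups, at 29806 to 31169 normalized counts in WT and 27947 to 35881 in KO. Much of the KO sum was Nrp1, 1 of the 2 genes that rose. Nrp1 was at 6255, 5681 and 5110 in WT and at 18070, 10319 and 18950 in KO. The 14 receptor signal genes of this list summed to 14245 to 14848 in WT and to 10465 to 10505 in KO, without overlap. Most of that sum was Gnb1, at 8999, 9763 and 9087 in WT and at 7348, 7225 and 7248 in KO. Gnb1 did not reach the 1.5-fold change (log2 fold change −0.35). Omp, the olfactory marker protein of mature sensory neurons, was at 437, 462 and 662 normalized counts in WT and at 160, 120 and 170 in KO (log2 fold change −1.78, SE 0.21, adjusted p = 3.55e-05, limma). Every KO library was below every WT library, KO replicate 3 included.

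Of the 14 genes that carry the receptor signal, 6 fell, none rose and 8 did not pass. Among all tested genes, 28.8% fell and 22.2% rose. Gnal, the G protein subunit coupled to the receptors, fell from 886, 833 and 1122 to 500.3, 469 and 498 (log2 fold change −0.94, adjusted p = 0.000148, limma). Cnga2, the channel subunit, fell from 14.6, 26.8 and 25.2 to 2.98, 2.37 and 9.11 (log2 fold change −2.13, adjusted p = 0.00872), a call that quantile normalization did not keep (log2 fold change −1.32, adjusted p = 0.0578). Adcy3, the cyclase, was at 355, 257 and 277 in WT and at 188, 223 and 349 in KO, which overlapped (adjusted p = 0.363). Trpc2, the channel of vomeronasal neurons, had 0 reads in every library.

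Of the 3 genes that help receptors to the cell surface, Reep1 fell, from 412, 371 and 577 to 107, 138 and 118 (log2 fold change −1.87, adjusted p = 2.17e-05, limma). Rtp2 was at 30.7, 4.82 and 11.03 in WT and at 4.96, 1.58 and 6.08 in KO, and Rtp1 was at 2.92, 0.688 and 3.15 in WT and at 0, 0 and 13.7 in KO, its only KO reads being in replicate 3. Neither passed.

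Of 9 genes of receptor choice and differentiation, 5 fell, 1 rose and 3 did not pass, beside 28.8% and 22.2% of all tested genes. Lhx2, a homeodomain factor that sensory neurons need to express receptors and that astrocytes express too, fell from 2589, 2616 and 2243 to 91.3, 83.3 and 83.6 (log2 fold change −4.83, adjusted p = 4.45e-09, limma). Ebf3 rose from 580, 531 and 567 to 1363, 1963 and 1566 (log2 fold change 1.53, adjusted p = 4.96e-06), whereas Ebf1 and Ebf4, of the same factor family, fell by 2.42 and 2.71 on the log2 scale. Ldb1, the cofactor of Lhx2, was at 1888, 1561 and 1466 in WT and at 1776, 2031 and 1531 in KO, and the groups overlapped.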

How the data were processed

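RNA-seq was carried out on TurboRFP-positive olfactory bulb cells of 3 WT and 3 Sox9 KO mice, 1 library per mouse, made from total RNA. The submitters' processing notes and the methods name STAR (2.5.0a) for alignment, mm10 as the genome and DESeq2 (1.20.0) for normalization of per-gene counts. The sources used here state neither the annotation nor the strandedness of the counting. The deposited signal values, named RPM, are whole reads divided by 1 size factor per library, since 100% of values, within 0.01 read, could be written as an integer times the value of 1 read. They are called normalized counts here. Since they were not RPM, the minimum mean of 1 and the pseudocount of 1 chosen for RPM were kept as numbers on normalized counts.

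All 18413 genes with a mean of at least 1 were fitted together in limma 3.58.1 (R 4.3.3) with a variance trend, two-sided p-values and no replicate block, and p-values were adjusted over all of them by Benjamini-Hochberg. Adjusted p-values named as limma or edgeR values come from these fits across all genes. Fold changes on log2(value + 1) understate those of low genes. The recovered reads were also tested with edgeR 4.0.16 and DESeq2 1.42.0. Floors of 3 reads cover counting error only, and the bound with equal weight for each library and those without 1 library were chosen after seeing the data. The tests were checked on simulated data, in which few genes changed and the spread between libraries was fixed. That check does not cover changes as wide as those between these groups. Gene positions, exons and coding sequences came from GENCODE (mm10), in which all 110 members were found, and promoters from RefSeq (GRCm38.p6). A cluster is a run of receptor genes with gaps under 1 Mb.

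The members and all gene lists were chosen with earlier results of these data known. Named receptor genes are those with a mean of at least 10 and the 3 on each side of the threshold. Added to these were the 10 largest called changes in each direction whose groups did not overlap, and a list drawn up for places outside the nose. Other members and the genes of other chemoreceptor families were named after their values were seen. Neighbours are tested genes that overlap a named member or lie within 20 kb. Alternatives changed the pseudocount, filter, scaling, variance model, block and tool, and left out each library in turn.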

Additional observations from a re-analysis of the deposited data

How the results depend on the processing

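The direction of all 21 called receptor genes was the same under every alternative in which they were tested, and 9 of the 13 higher and 7 of the 8 lower were called under each of them. The number of members called higher (13) became 20 with no filter, 22 with quantile normalization and 6 with a minimum mean of 10, which leaves 13 members to test, and the number called lower (8) became 4 under that minimum. Leaving out each library in turn gave 10 to 16 higher and 7 to 14 lower members, 105 to 116 detected receptor genes, and 18 to 21 lower and 2 higher genes of the transduction list. The other alternatives stayed within 1.5 times of each count, with 10 higher and 7 lower members in DESeq2, which gave no adjusted p for 49 members, and 17 and 8 at an unadjusted p of 0.05. Detection with a read in every library left 19 receptor genes in place of 110. With the replicate number as a block, 12 members were called higher and 8 lower. The numbers did not pair the samples: the deviations of same-numbered libraries correlated at −0.05, −0.01 and −0.01, and not every library correlated best with its own number.

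Of single genes, Olfr112 turned to a log2 fold change of 0.65 with quantile normalization and lay between −0.65 and 0.14 with each library left out (0.14 without KO replicate 1), and Adcy3 turned to 0.21 with quantile normalization, none of them called. Olfr1034, Olfr1426, Olfr1424, Olfr1423, Olfr1373 and, with quantile normalization, Cnga2 lost their call under at least 1 alternative. Olfr32 gained one with total scaling without Rn45s (adjusted p = 0.0381, limma) and without KO replicate 2, and Olfr56 with quantile normalization (0.00766) and without WT replicate 3. The cause was not tested. Depth limits the low genes most: 97 of the 110 members had a mean under 10, where 1 read is worth up to 1.58 normalized counts.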

Other observations

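Other chemoreceptor families are given by their values, and the genes named were chosen after these were seen. Of 127 listed Vmn2r genes, receptors of the vomeronasal organ, 22 had a mean of at least 1, of which 4 fell and 0 rose at an adjusted p under 0.05 and 1.5-fold in limma, beside 28.8% and 22.2% of all tested genes and 16.1% and 4.94% of those with a mean under 10, while 3 of 211 Vmn1r genes and 0 of 15 Taar genes had such a mean. Vmn2r57 was at 38.0, 30.3 and 72.5 normalized counts in WT and at 3.97, 10.7 and 12.2 in Sox9 KO. Of the taste receptors, 3 of 3 Tas1r and 5 of 35 Tas2r genes had a mean of at least 1. Of these, 2 Tas1r genes and 1 Tas2r gene fell and 0 rose, beside 28.8% and 22.2% of all tested genes. Tas1r2, a subunit of the sweet receptor, went from 46.8, 61.2 and 88.3 in WT to 0.993, 0 and 0 in Sox9 KO (log2 fold change −5.67). Its partner Tas1r3 was at 49.7, 43.4 and 82.0 in WT and at 67.5, 77.8 and 82.0 in Sox9 KO and did not pass. Tas1r1 (log2 fold change −1.82, adjusted p = 0.0492, limma) and Tas2r108 (−2.57, adjusted p = 0.0236) were the others that fell. Of 10 detected genes between Ms4a4 and Ms4a15, 5 rose and 1 fell, beside 22.2% and 28.8% of all tested genes. Of those that rose, Ms4a6b, Ms4a6c, Ms4a6d and Ms4a7 had log2 fold changes between 1.73 and 1.98. Ms4a7 is also 1 of the 9 markers of border macrophages and monocytes counted above. The part of the cell type shifts in these values was not tested. Ms4a15 fell, from a mean of 69.7 in WT to 15.1 in Sox9 KO (log2 fold change −2.17, adjusted p = 0.00415, limma).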
